A study of Equus caballus with 93 samples.

Results

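A set of 145 genes of 15838 measured in synovial fluid cells of horses had a higher mean 2 weeks after joint surgery than before it, and was back near the first level, on average, over the weeks that followed. The members were chosen by their measured values. In the 70 libraries whose spread (the standard deviation of its log2 values across genes) was 2 or more, each gene's mean was taken per week with both treatment arms together. A member had a mean of at least 1 over these libraries, a mean at week 2 at least 1 above that at week 0, and a mean of weeks 4 to 10 above week 0 by at most 0.33 of the rise at week 2. All values are log2 CPM (reads relative to the size of the library), on which a difference of 1 is a 2-fold change. The 145 were all the genes that met these conditions, so no limit of 150 had to be applied, and the 6 identifiers that were to be left out did not meet them.

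In all 16 horses, 2 to 5 years old, an osteochondral fragment had been made surgically in 1 middle carpal joint, which 2 weeks later received 2 mL of 2.5% injectable polyacrylamide hydrogel (iPAAG, 8 horses) or of saline (Control, 8 horses). Both arms therefore carry the fragment, the operation and an injection, and both were exercised on 5 days a week from week 2 to week 10. Fluid was drawn before surgery (week 0) and at weeks 2, 4, 6, 8 and 10, which gave 93 libraries. Whether the joint was injected before or after the fluid of week 2 was drawn is not given in the labels. Operation and elapsed time change together in both arms and cannot be told apart. From week 2 on, exercise and an injection as such are added in both arms, and cannot be told apart from these either. Synovial membrane and sham-operated joints were not analysed here.

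Synovial fluid is a filtrate of plasma to which the lining cells of the joint add hyaluronan and lubricin. A normal joint holds few cells in it, mostly mononuclear, and blood leukocytes and shed lining cells enter it after injury. An osteochondral fragment in the carpus of an exercised horse is a widely used surgical model of osteoarthritis. Libraries were made from the pelleted cells as a mixture, so fewer cells of a type and less RNA per cell cannot be told apart. The genes are named by Ensembl horse identifiers only, and 0 of 15838 could be paired with a symbol, so markers of leukocytes or lining cells could not be checked and no role can be given to any member.

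The 70 libraries used for the choice comprised 7, 7, 3, 4, 6 and 2 iPAAG and 8, 7, 7, 6, 7 and 6 Control libraries at weeks 0, 2, 4, 6, 8 and 10. The other 23, from 12 horses, had a spread of 1.20 to 1.90, below the 2.19 to 4.21 of the 70, and 15 of them were iPAAG libraries of weeks 4 to 10. They are given separately below. Over all 93 libraries, between 1737741 and 39916655 reads fell in genes. No 2 libraries of a group were identical.

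The members made up 0.916% of all genes and 22.4% of the 647 genes with a mean of at least 1 and a rise of at least 1 at week 2. Their mean level ran from 1.01 to 9.94 with a median of 4.15, and 38 lay below 3, 80 between 3 and 6, and 27 at 6 or above. The rise at week 2 ran from 1.00 to 4.11 with a median of 1.52, and reached 2 in 40 members and 3 in 8. The mean of weeks 4 to 10 lay between 0.77 below and 1.18 above week 0, with a median of 0.21 above it, and was below week 0 in 36 members. These numbers describe the choice and are not tested. The member nearest to the limit on the later weeks kept 0.325 of a rise of 2.04, and the nearest gene outside it kept 0.333 of a rise of 1.33. The smallest rises inside and outside were 1.00 and 0.997, and the lowest means inside and outside were 1.01 and 0.992. A further 216 genes met both conditions on the changes but had a mean below 1.

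**Figure D1:**
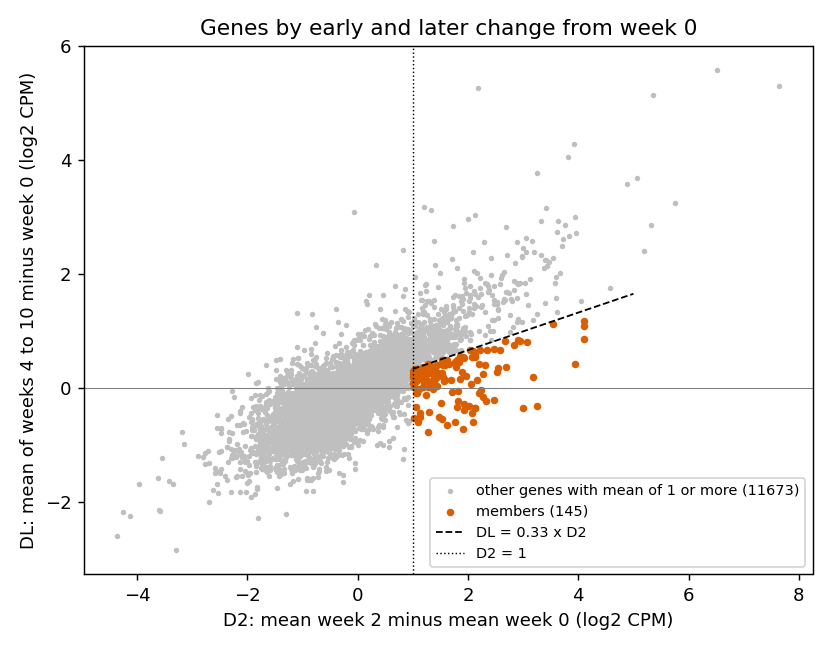
Each point is a gene whose mean log2 CPM reached 1, placed by its rise at week 2 (x axis) and by the mean of weeks 4 to 10 minus week 0 (y axis), both as log2 differences. The 145 members lie in the region that the choice defined, with rises of 1.00 to 4.11.

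In order of week, the mean over the 145 members was 3.75, 5.47, 4.89, 3.95, 3.75 and 3.11 for weeks 0, 2, 4, 6, 8 and 10 (15, 14, 10, 10, 13 and 8 libraries). Single libraries ran from 2.76 to 5.61 at week 0 (median 3.50), from 4.06 to 6.43 at week 2 (median 5.60) and from 2.69 to 6.49 at week 4 (median 4.93). They ran from 2.13 to 5.14 at week 6 (median 4.06), from 2.07 to 5.78 at week 8 (median 3.56) and from 2.61 to 3.60 at week 10 (median 3.14). Libraries of different weeks overlapped widely up to week 8, while at week 10 all 8 of these libraries lay below the lowest library of week 2. Both weeks enter the choice, so this is not tested. The 8 libraries of week 10 with a spread below 2 had 4.10 to 4.53, all above that lowest library of week 2. The members took 0.571% ± 0.341 of the reads in genes at week 0 (SD, n = 15), 1.29% ± 0.589 at week 2 (SD, n = 14), 1.13% ± 0.888 at week 4 (SD, n = 10), 0.556% ± 0.280 at week 6 (SD, n = 10), 0.490% ± 0.294 at week 8 (SD, n = 13) and 0.458% ± 0.0746 at week 10 (SD, n = 8). The highest share, 2.88%, was in a Control library of week 4 and lay above the 2.29% of the highest library of week 2.

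The choice fixed only the average of the 4 later weeks, and the means of the members differed among them. With both arms together the largest step down lay between weeks 4 and 6, where the mean over libraries was lower at week 6 in Control but higher in iPAAG. The iPAAG libraries of these weeks came from different horses except horse 12, in which the mean over members fell from 5.17 to 4.27. The mean of neither arm fell at every step. In iPAAG horses the mean over members was 4.53, 4.81, 3.03 and 3.14 for weeks 4, 6, 8 and 10, and in Control horses 5.05, 3.37, 4.37 and 3.10. Relative to week 0, the median member stood at 1.08, 0.16, -0.03 and -0.41 for weeks 4, 6, 8 and 10. At week 4, 142 of the 145 members were still above week 0 and 106 kept at least 50% of their rise. At week 6, 99 were above week 0 and 6 kept that much. At week 8, 69 were above week 0, and at week 10, 41. In 132 members the highest weekly mean was that of week 2, and 12 had a higher mean at week 4 than at week 2. The lowest weekly mean fell at week 10 in 89 members, at week 8 in 31 and at week 0 in 19. The later means do not come from the same horses, because 4 iPAAG libraries of week 4 and 6 of week 10, for example, were not among the 70.

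**Figure D2:**
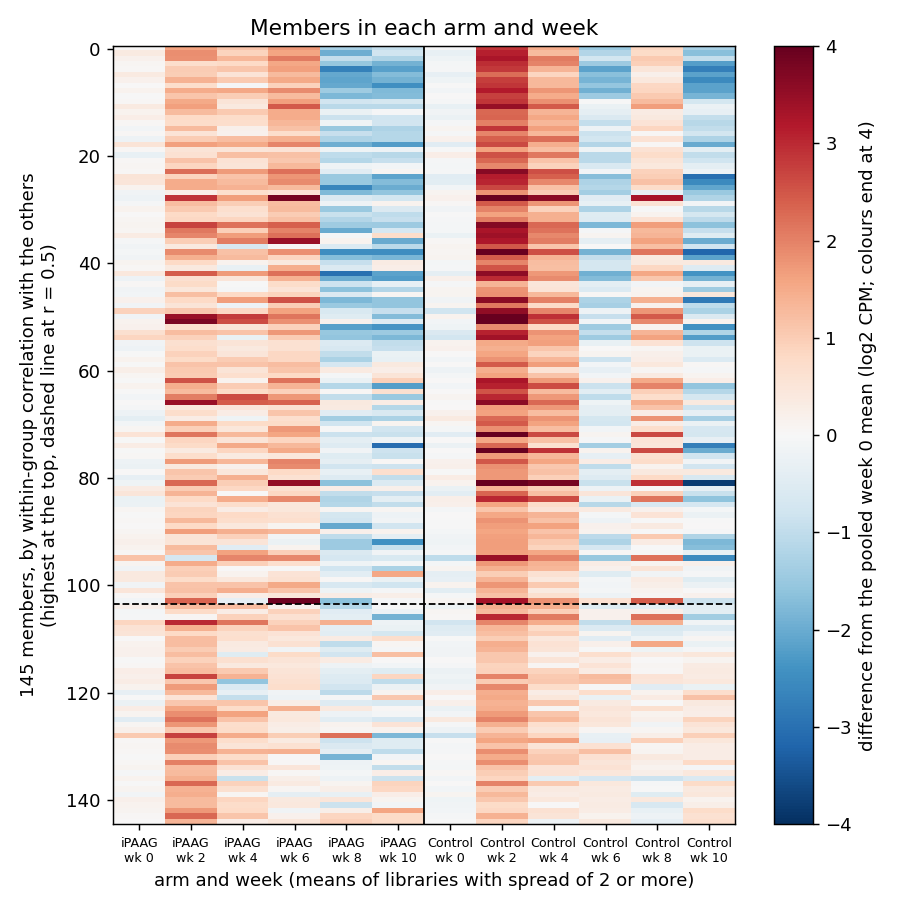
Each line of the heat map is 1 of the 145 members and each column an arm and week, iPAAG left and Control right, coloured by the mean log2 difference from the week 0 mean of both arms, in libraries with a spread of 2 or more (colours end at 4). Members run from the highest to the lowest within-group correlation with the others, and above the dashed line (r of 0.5, 104 members) iPAAG is mostly red at week 6 and blue at week 8 where Control is mostly blue and red.

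In the 14 horses with both weeks among the 70 libraries, the mean over members was higher at week 2 than at week 0 in 13. The difference ran from -0.15 in iPAAG horse 12, where 57 of 145 members were higher, to 3.37 in Control horse 11, where 144 were. It averaged 1.17 ± 0.97 in iPAAG horses and 2.52 ± 1.07 in Control horses (SD, n = 7 each). iPAAG horse 3 had 3.09, within the range of the Control horses, and Control horse 9 had 0.20 with 80 members higher, so the arms overlapped. Each member was higher at week 2 in 8 to 14 of the 14 horses, with a median of 12, and 24 members were higher in all 14. The members were chosen by a higher mean at week 2 in these same libraries, so these counts describe the choice and are not tested.

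The 2 members with the largest rise were ENSECAG00000010117 and ENSECAG00000009742. ENSECAG00000010117 had a lowest value of 3.03, a median of 4.74 and a highest of 6.69 at week 2 (n = 14), against a lowest value of -3.58, a median of 0.94 and a highest of 4.17 at week 0 (n = 15). The ranges overlapped. The gene was higher at week 2 in 14 of 14 horses, and its median was 514 reads at week 2 and 34 at week 0. Both genes were chosen by their rise in these same libraries, which favours such counts of horses. Its weekly means were 0.53 ± 2.15, 4.64 ± 1.08, 3.41 ± 2.05, 0.84 ± 2.63, 1.62 ± 2.56 and -0.34 ± 0.91 from week 0 to week 10 (SD, n = 15, 14, 10, 10, 13 and 8). ENSECAG00000009742 lay between 5.03 and 7.78 with a median of 6.31 at week 2, and between -0.70 and 5.95 with a median of 2.47 at week 0. It too was higher at week 2 in 14 of 14 horses, and its weekly means were 2.37 ± 1.63, 6.47 ± 0.81, 4.93 ± 1.84, 3.03 ± 1.69, 3.49 ± 1.92 and 2.35 ± 0.99 (SD, same n). Both genes thus varied less between horses at week 2 than at any other week except, for ENSECAG00000010117, week 10.

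The 2 members with the lowest mean of weeks 4 to 10 relative to week 0 were ENSECAG00000013762 and ENSECAG00000013457, at 0.77 and 0.73 below week 0. ENSECAG00000013762 lay between 1.47 and 6.14 with a median of 4.18 at week 2, and between 0.20 and 5.59 with a median of 2.68 at week 0, and was higher at week 2 in 10 of 14 horses. Its weekly means were 2.72 ± 1.58, 4.00 ± 1.46, 3.44 ± 1.52, 2.24 ± 1.58, 1.79 ± 2.09 and 0.32 ± 0.81 (SD, same n). ENSECAG00000013457 lay between 5.59 and 10.33 with a median of 8.69 at week 2, and between 3.29 and 9.72 with a median of 6.22 at week 0. It was higher at week 2 in 11 of 14 horses, and its weekly means were 6.44 ± 1.91, 8.36 ± 1.47, 7.72 ± 2.10, 5.82 ± 2.68, 5.46 ± 2.44 and 3.85 ± 1.00 (SD, same n). For both genes the ranges of week 2 and week 0 overlapped over most of their width.

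**Figure D3:**
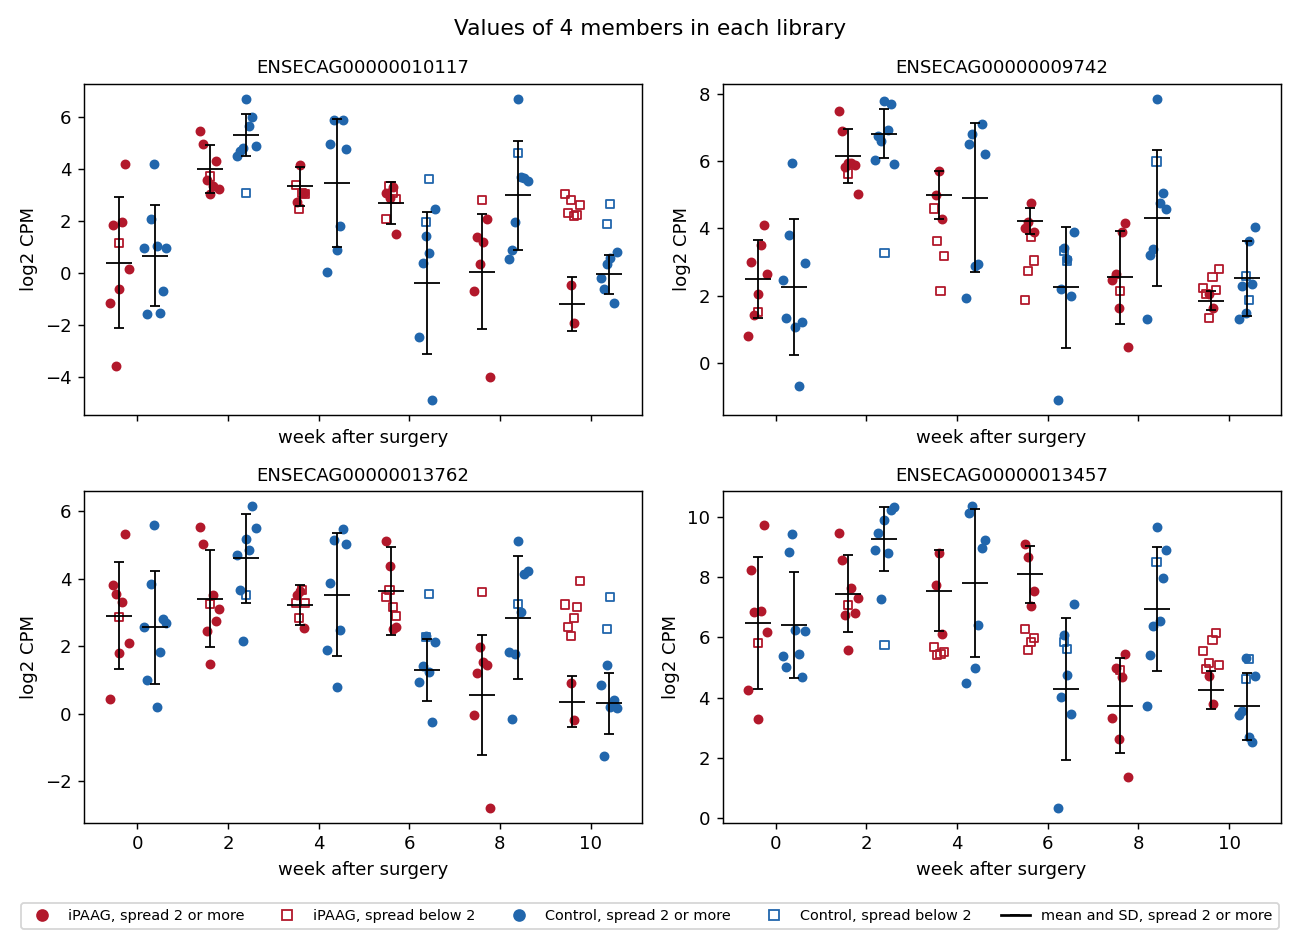
Log2 CPM of the 4 named members in each library by week (x axis), with iPAAG left of Control within a week. Filled points are the 70 libraries with a spread of 2 or more, open points the other 23, and bars the mean and SD of the filled points. At week 2 all filled points of ENSECAG00000010117 lie at 3.03 or above.

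Change among the later weeks was tested as the mean of weeks 8 and 10 minus that of weeks 4 and 6, arms weighted equally, since the choice used the 4 weeks only as 1 average. Week 4, when most members were still high, is on one side of this difference, so it does not show a decline after week 6. By limma, with adjustment over all genes, 85 members had an adjusted p below 0.05, 84 of them lower at weeks 8 and 10. That is 57.9% of the members lower, against 12% of all genes, and 58.6% in either direction against 22.7%. The 84 falls ran from 0.40 to 2.46 with a median of 1.25. Of all members 139 of 145 had a negative difference (95.9%, against 51.4% of all genes), and the median was -0.98, against -0.01 over all genes. The 1 member that was higher had the highest mean log2 CPM of the set, a scale that does not account for gene length, with a weekly mean of 10.76 at week 10, and was singled out after its values were seen. ENSECAG00000013457 fell by 2.25 ± 0.55 (SE, adjusted p = 0.00376) and ENSECAG00000013762 fell by 1.89 ± 0.48 (adjusted p = 0.00463). ENSECAG00000010117 fell by 1.77 ± 0.60 (adjusted p = 0.0271) and ENSECAG00000009742 fell by 1.27 ± 0.47 (adjusted p = 0.0426).

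That count depended on 1 horse. Without iPAAG horse 5 it was 4 members, with a median of -0.86 and 138 negative, beside 0.366% of all genes called lower, and without any other horse it was 66 to 96. Without horse 5 the 4 named members also missed the threshold, with adjusted p = 0.0662 for ENSECAG00000013457, 0.0716 for ENSECAG00000013762, 0.133 for ENSECAG00000010117 and 0.180 for ENSECAG00000009742. With horse as a fixed block the adjusted p was 0.0526 for ENSECAG00000010117 and 0.0546 for ENSECAG00000009742. In iPAAG horses alone 62 members were called, all 62 lower (background 3.44%), with a median of -1.37. In Control horses alone 0 members and 0 genes (0%) were called, with a median of -0.49 and 137 of 145 negative. There 24 of 145 members and 2510 of 15838 genes had an unadjusted p below 0.05, which are similar shares. Whether the arms differed in this later change was tested after these values were seen, and the difference was called for 0 members and 0 of 15838 genes (0%), with 34 members and 909 genes at an unadjusted p below 0.05 and a median of -0.93. With week 8 set against week 6 only, 1 member and 30 genes were called, the median was -0.38 and 118 members were negative, and ENSECAG00000009742 and ENSECAG00000010117 had positive values of 0.23 and 0.45 (limma adjusted p = 0.913 and 0.853).

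The arms were then compared in the change from week 0 to week 2, the week of the injection. The choice required a rise with both arms together and so favoured a higher mean at week 2 in each arm, which 144 members had. The rise was smaller in iPAAG horses in 126 of the 145 members and larger in 19. Its median was 1.08 in iPAAG and 1.90 in Control horses. Over all genes the fitted difference was negative in 54.1%, with a median of -0.04. By limma the difference was called for 0 members and 0 of 15838 genes (0%), with 22 members and 632 genes at an unadjusted p below 0.05, and its median over members was -1.01. At week 2 the mean over members lay between 4.06 and 6.24 in iPAAG horses (median 4.86, n = 7), and between 5.05 and 6.43 in Control horses (median 6.13, n = 7), so most iPAAG libraries were below most Control libraries.

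**Figure D4:**
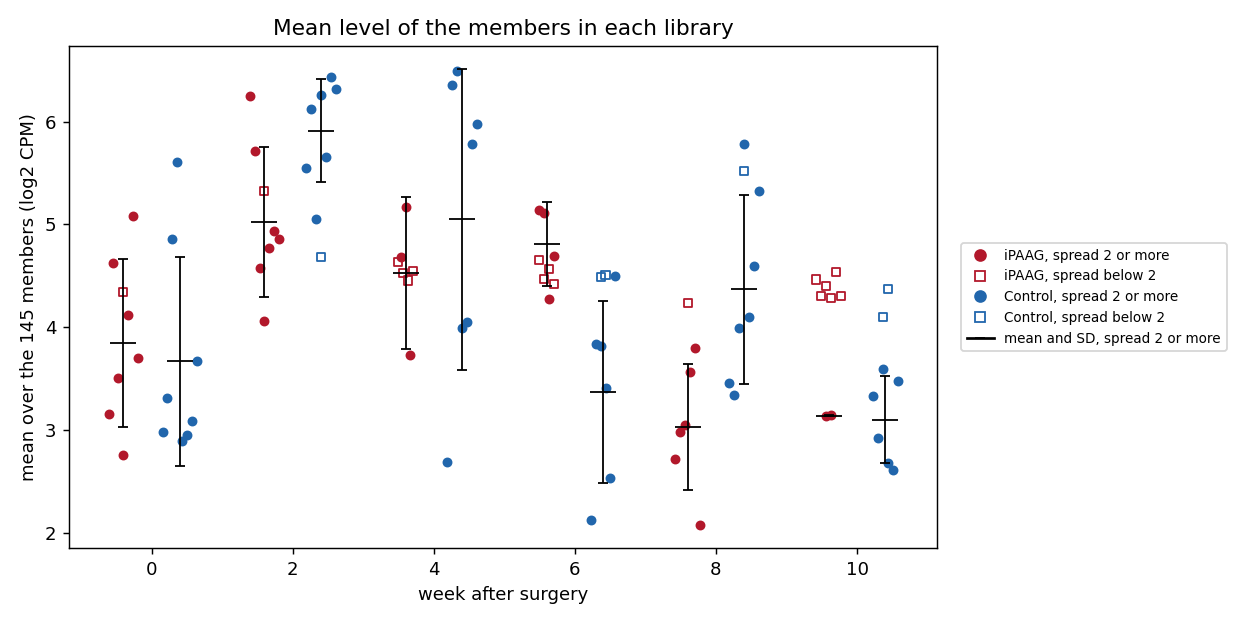
Mean log2 CPM over the 145 members in each library by week, iPAAG left of Control. Filled points are libraries with a spread of 2 or more, open points the other 23, and bars the mean and SD of the filled points. iPAAG libraries of week 6 lie between 4.27 and 5.14 and Control libraries of week 6 between 2.13 and 4.50.

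To ask about the hydrogel, the change since week 2, a difference of arm-by-week means, was compared between the arms. Members were called at week 6. There the mean over members was 5.14, 5.11, 4.27 and 4.70 in iPAAG horses 3, 5, 12 and 14, against 2.13, 3.84, 3.82, 3.41, 2.53 and 4.50 in Control horses 1, 10, 11, 13, 15 and 16. Each iPAAG library was above every Control library, except that Control horse 16 exceeded iPAAG horse 12. In 30 members (20.7%, against 0.972% of all genes) every iPAAG library was above every Control library. By limma 23 members (15.9%) had an adjusted p below 0.05 for the difference in week 6 minus week 2, all higher in iPAAG horses, against 0.783% of all genes called higher and 0.909% called in either direction. The 23 differences ran from 2.35 to 5.94. Over all members 122 of 145 were positive, with a median of 2.22, against -0.09 over all genes. The difference combines the week 6 gap with the lower iPAAG values at week 2, since both weeks enter it, and at week 6 alone the median iPAAG minus Control was 1.35. The iPAAG libraries of week 2 came from horses 3, 5, 6, 7, 8, 12 and 17, so the 2 weeks share only horses 3, 5 and 12. Only 8 horses of both arms had both weeks, and in each the mean over members was lower at week 6. The choice of members in these same libraries favours such a fall, so it is not tested. At week 2 the mean over members was 6.24, 5.72 and 4.93 in iPAAG horses 3, 5 and 12. In Control horses 1, 11, 13, 15 and 16 it was 5.55, 6.26, 5.66, 6.43 and 6.31.

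The week 6 count was not stable. Over all 15838 genes 144 were called, and the count of members moved with that of genes. With horse as a fixed block it was 0 members and 0 genes, and without a block 1 member and 16 genes. It was 0 members without any one of iPAAG horses 3, 5, 6, 7 and 8 or Control horses 15 and 16, with 0 to 3 genes called. It was 1 member and 10 genes without iPAAG horse 17, and 4 members and 54 genes without Control horse 2. Without Control horse 11 or 13 it was 13 members, with 109 and 130 genes, and without Control horse 9 it was 62 members and 854 genes. With 1 horse left out, the median over members stayed between 1.94 and 2.44. With all 93 libraries 0 were called, and the median was 1.51. In the libraries of lower spread the arms lay close together at week 6, with means over members of 4.65, 4.47, 4.57 and 4.42 in iPAAG horses 6, 7, 8 and 17, and of 4.49 and 4.51 in Control horses 2 and 9. This mean varied little in such libraries: its SD over weeks 4 to 10 was 0.28 (n = 20), against 1.15 in libraries with a spread of 2 or more (n = 41). Their closeness therefore says little about the arms.

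Of the named members, ENSECAG00000013457 passed at week 6. It had 9.09, 8.67, 7.06 and 7.56 in the 4 iPAAG libraries, against a lowest value of 0.35, a median of 4.40 and a highest of 7.11 in the 6 Control libraries. Only the highest Control library reached the lowest iPAAG one. The arms' difference in change from week 2 was 5.45 ± 1.36 (SE, limma adjusted p = 0.0419), with an adjusted p of 0.126 with horse as a fixed block and 0.0527 without a block. For ENSECAG00000010117 the iPAAG libraries had 3.07, 2.87, 3.29 and 1.50, and the Control libraries a lowest value of -4.89, from a library with no read, a median of 0.57 and a highest of 2.45. Its difference was 4.28 ± 1.47 (SE, adjusted p = 0.113). ENSECAG00000013762 had a difference of 3.55 ± 1.18 (adjusted p = 0.103) and ENSECAG00000009742 one of 2.51 ± 1.16 (adjusted p = 0.223), neither past the threshold.

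At the other weeks no member was called, and the difference between week 6 and these weeks was not tested. Week 4 gave 0 members and 2 genes (0.0126%), week 8 gave 0 and 0 (0%), and week 10 gave 0 and 0 (0%). At weeks 4, 8 and 10, 1, 3 and 8 members and 1187, 1377 and 261 genes had an unadjusted p below 0.05. The share of members was below that of all genes at weeks 4 and 8 and above it at week 10. The median difference over members was 0.29, -0.36 and 0.88 for these weeks. Over weeks 4 to 10 together 0 members and 0 genes (0%) were called, with 25 members and 1682 genes at an unadjusted p below 0.05 and a median of 0.76. These contrasts all share the week 2 libraries. The side on which the members lay changed between weeks: in order of weeks 4, 6, 8 and 10, iPAAG was above Control in 36, 125, 19 and 76 of the 145 members, beside 37.4%, 47.8%, 39.8% and 55.3% of all genes. At week 8 the mean over members was 3.03 ± 0.61 in iPAAG horses (SD, n = 6) and 4.37 ± 0.92 in Control horses (SD, n = 7), and the iPAAG libraries of week 6 and of week 8 have only horses 5 and 12 in common. The highest library of week 8, 5.78 in Control horse 11, had the fewest reads in genes of the 70 (6076026) and 2211 genes without a read.

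**Figure D5:**
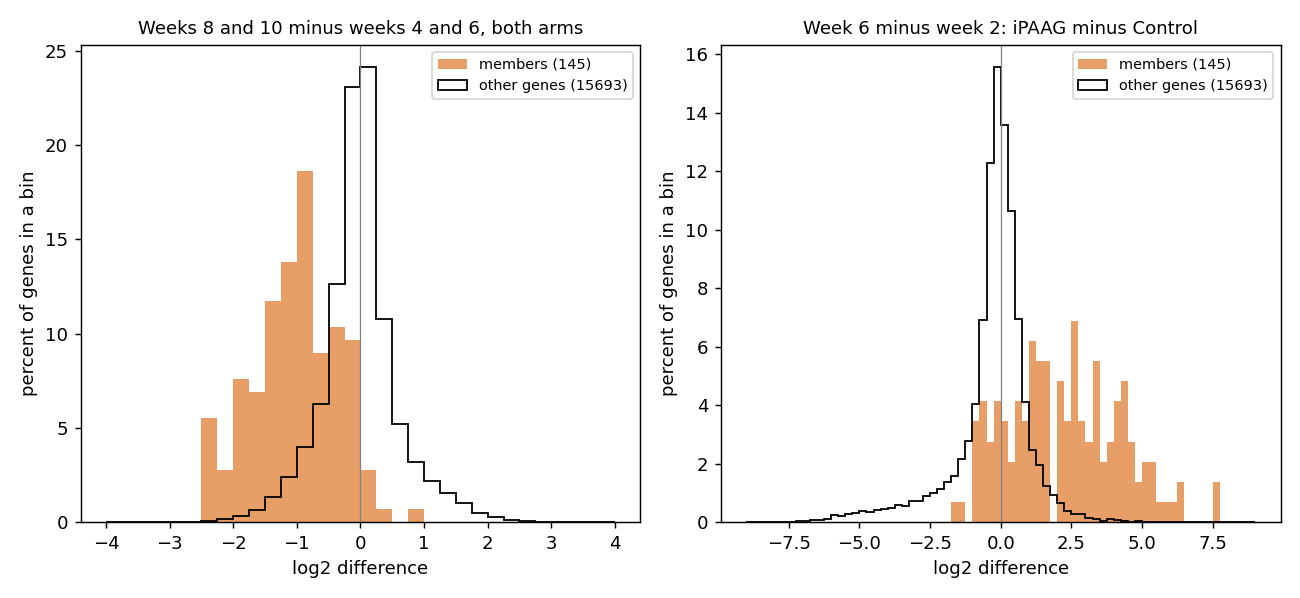
Distribution of the log2 difference for the 145 members (filled) and the other 15693 genes (line), as percent of genes in a bin. Left, weeks 8 and 10 minus weeks 4 and 6 in both arms, with a member median of -0.98. Right, the iPAAG minus Control difference in week 6 minus week 2, with a member median of 2.22.

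The members also moved together between libraries of the same arm and week. After each arm-by-week mean was removed, the median Pearson r between pairs of members over the 70 libraries was 0.45, and 92.0% of pairs were positive. Over all pairs of the 11818 genes with a mean of at least 1, the median r was 0.02 and 53.0% were positive. The libraries share depth and scaling between genes, and the mean over members had an r of -0.15 with library spread. This is a description of these libraries without a test. Of the named members, r with the mean over members was 0.93 for ENSECAG00000013457, 0.81 for ENSECAG00000010117, 0.81 for ENSECAG00000009742 and 0.81 for ENSECAG00000013762.

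Not every member followed this common pattern. With r against the mean of the other members as the measure, 104 had an r of at least 0.5, 56 of them of at least 0.8, and 41 had a lower one, 2 of them below 0. The division was made after the values were seen, 6 members lay between 0.45 and 0.55, and it carries no test. The 104 averaged 3.98, 5.08, 4.74, 5.19, 2.96 and 3.06 in iPAAG horses from week 0 to week 10, and 3.82, 6.36, 5.42, 3.26, 4.70 and 2.89 in Control horses. The other 41 averaged 3.52, 4.87, 3.99, 3.82, 3.22 and 3.35 in iPAAG horses, and 3.29, 4.77, 4.11, 3.65, 3.54 and 3.64 in Control horses. At weeks 6 and 8 the means of the arms lay closer together in the 41 than in the 104. All 23 members called at week 6 were among the 104, as were 71 of the 84 called lower at weeks 8 and 10, and 20 members were in both calls, which share the week 6 libraries. Relative to week 0, the median at week 10 was -0.86 in the 104 and 0.20 in the 41.

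The 23 libraries of lower spread were not used to choose the members. The mean over members was 5.33 in iPAAG horse 14 and 4.68 in Control horse 10 at week 2, and 4.34 in iPAAG horse 14 at week 0, the only such library of that week. In the 20 libraries of weeks 4 to 10 it ran from 4.10 to 5.52 with a median of 4.47, and only Control horse 9 at week 8 exceeded both week 2 values. Week 2 was above weeks 4 to 10 in 132 of 145 members, by a median of 0.43, against 0.01 over all genes. With 2 libraries at week 2, limma called 0 members and 0 of 15838 genes (0%), and 24 members and 277 genes had an unadjusted p below 0.05. Reads in genes were 1737741 to 12597216 in these libraries and 6076026 to 39916655 in the 70.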

How the data were processed

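Per the labels' protocols, RNA of pelleted synovial fluid cells went into stranded Pico-input libraries. The authors deposited log2 CPM values of 15838 genes in 93 libraries, which the table's name gives as voom-normalised. The submitters' processing notes name STAR 2.7.10b, EquCab3.0 and limma 3.62.2, and of read counting, annotation and low-count filter the steps are not stated, so genes that overlap or have near-identical copies are uncertain. The deposited values are reads plus 0.5 over a scaled library size, so 100% came out as whole reads within 0.05 reads. A log2 change of a gene with few reads is understated, and depth limits it.

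The members and lists were chosen with earlier results of these data known. Libraries of each arm and week are separate animals per the labels. Tests used limma 3.58.1 (R 4.3.3) on the 70 libraries with a spread of at least 2: 12 arm-by-week means, horse as a random block (consensus correlation 0.0941), a mean-variance trend, and Benjamini-Hochberg adjustment over 15838 genes with a threshold of 0.05. The 23 other libraries were fitted with 3 means (week 0, week 2, weeks 4 to 10). The block rests on the labels, which give the animal of each library. Deviations from group means over 11818 genes had a mean r of 0.20 within a horse, against -0.01 between horses. No test was made of week 2, or weeks 4 to 10, against week 0.

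The genes named were the 2 members with the largest rise and the 2 with the lowest later mean relative to week 0, a rule used because no identifier had a symbol. For the same reason the marker and pathway lists could not be applied. Alternatives were the block, the libraries, scaling, added reads, a low-value filter, voom weights, the groups in the fit and each horse left out. The fit was run on simulated data, with genes drawn independently, for the arms' differences in week 2 minus week 0 and in weeks 4 to 10 minus week 2. It was also run for weeks 8 and 10 minus weeks 4 and 6 and for the libraries of lower spread. In that order, 76%, 76%, 94% and 78% of genes given a log2 change of 2 were recovered. The arms' difference in week 6 minus week 2 was not simulated. Python 3.11.15, numpy 2.4.6, pandas 2.3.3 and matplotlib 3.10.9 were used for values and plots.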

Additional observations from a re-analysis of the deposited data

Results flagged for a closer look

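The arms' difference in the change from week 2 to week 6 passed the threshold in 23 members, all higher in iPAAG horses, which is the test of a difference between groups in the same change. It compares means of partly different horses, since only 8 had both weeks 2 and 6 among the 70 libraries. It rests on 4 iPAAG and 6 Control libraries at week 6, of which the iPAAG libraries come from horses 3, 5, 12 and 14. The other 4 iPAAG and 2 Control libraries of that week had a spread below 2, and the part of spread in the result was not tested. In the arm-by-week groups of 4 to 8 libraries, the mean over members and the values of the 4 named members were examined for a library far from the others. In these 50 sets of values 0 were found, where chance gives about 1 in 20.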

How the results depend on the processing

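For the arms' difference at week 6 (23 called), beside 144 of 15838 genes, the count of members was 1 with no replicate block (16 genes), 0 with horse as a fixed replicate block (0), 0 with all libraries (0), 5 with voom weights (58), 59 with all libraries and spread as a covariate (2662), and 62 with only the groups compared (343). Leaving out each horse gave 0 to 62 (0 to 854). For weeks 8 and 10 minus weeks 4 and 6 (85 called, beside 3592 genes), the count was 81 with the fixed block (3611 genes), 77 with no block (2959), 34 with all libraries (912), 56 with a spread of at least 3 (3607), 56 with voom weights (3158), 0 in Control horses alone (0) and 1 with week 8 minus week 6 only (30), the last 2 chosen after seeing the data. Leaving out each horse gave 4 to 96 (101 to 3873). With week 8 minus week 6 only, ENSECAG00000009742 and ENSECAG00000010117 changed sign to 0.23 and 0.45 (limma adjusted p = 0.913 and 0.853). With spread as a covariate in all libraries, 5 members (2358 genes) were called for the arms' difference in weeks 4 to 10 minus week 2. For the arms' difference in week 4 minus week 2 it was 4 members (2220), and 7 (3633) with all libraries alone. In each of these the share of the 145 members was below that of the 15838 genes. Choosing the genes again with all libraries kept 77 of the 145 among 150, and with a kept share of 0.5 it kept 80 among 150, because 258 genes then met the conditions and only the largest rises entered. The other settings shared 100 to 144, and 114 to 143 with each horse left out. The cause was not tested for the other changes. The arms' differences at weeks 2, 8 and 10 stayed at 0 members in every setting run, as did week 2 minus weeks 4 to 10 in the libraries of lower spread. Depth limits low members most: in a library of 1737741 reads a member with a log2 CPM near 1 has few reads.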
